A study of Mus musculus with 15 samples.

Results

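A set of 10 genes of autophagy was followed in mouse microglia after a single dose of a TREM2 antibody that crosses into the brain. The genes were taken as a named list: Rb1cc1, Ulk1 and Atg13 of the initiation kinase complex, Becn1 of the lipid kinase complex, Atg5 and Atg7 of the conjugation machinery, the ATG8 proteins Map1lc3b and Gabarapl1, the cargo receptor Sqstm1 and the transcription factor Tfeb. All 10 of 10 were present among the 32372 genes of the deposited matrix, and all 10 passed the filter on low counts that left 14260 genes. The donors were 15 male mice aged 3.5 months, all hTfR KI on C57BL/6J and so carrying human transferrin receptor sequence in every group, controls included, and cells were enriched from hippocampus and cortex with CD45 beads. Each mouse received 10 mg/kg once of ATV:4D9, an antibody against TREM2 on a vehicle (ATV) that binds the transferrin receptor, or of ATV:RSV, whose control antibody sits on an identical vehicle. Tissue was taken 1, 7, 14 or 28 days after ATV:4D9 and 1 day after ATV:RSV. Each of these 5 groups had 3 mice, spread so that every one of 3 batches contained the full set of groups once. The same 3 ATV:RSV mice therefore served as the control for every day, and the later days had no control of their own day.

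Autophagy encloses cytoplasm in a double membrane and delivers it to the lysosome. The kinase ULK1, held in a complex with ATG13 and the scaffold FIP200 (encoded by Rb1cc1), starts the process when mTORC1 does not restrain it, and the Beclin 1 complex then makes the lipid signal on the growing membrane. ATG7 and the ATG5 conjugate help to attach ATG8 proteins such as LC3B to that membrane, where cargo receptors such as p62 (encoded by Sqstm1) bind them. TFEB is a transcription factor of lysosome and autophagy genes. In phagocytes, parts of the same conjugation machinery also attach LC3 to the membranes of phagosomes. Most control of autophagy acts on these proteins, so the transcript levels reported here are not a measure of autophagic flux.

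The members lie on 8 chromosomes of mm10 (GENCODE M21) and are all annotated as protein coding. Rb1cc1 spans chr1:6206197-6276648 on the plus strand, Ulk1 chr5:110784488-110810097 on the minus strand and Atg13 chr2:91674618-91710576 on the minus strand. Becn1 spans chr11:101285952-101302286 (minus), Atg5 chr10:44268358-44364291 (plus) and Atg7 chr6:114643097-114860614 (plus). Map1lc3b spans chr8:121590361-121598760 (plus), Gabarapl1 chr6:129533160-129542346 (plus), Sqstm1 chr11:50199366-50210827 (minus) and Tfeb chr17:47737030-47792419 (plus). Exons of Rb1cc1, Becn1, Map1lc3b, Gabarapl1 and Sqstm1 overlap those of a gene on the other strand, for Becn1 the gene Cntd1 and for Sqstm1 the gene Mrnip. The study's methods name the standard Cell Ranger pipeline, which counts sense reads for libraries of this kind, so that partners on opposite strands are in general kept apart. Map1lc3b, Atg5, Atg7 and Gabarapl1 also overlap annotated genes on their own strand, for Map1lc3b the protein coding Gm20388. No exons overlap in these cases, and strand does not keep such pairs apart.

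RefSeq start sites (GRCm38.p6) were found for 8 of the 10 members, and the 250 bases before each of their 10 start sites were searched on both strands for the E-box CACGTG, to which the TFEB family can bind, for TGACNNNGC, the core of the antioxidant response element, and for TGTTTAC, a forkhead site. The E-box lay in the stretches of Atg5 and Atg7, where it began 14 and 132 bases before the start site, and 6.02% of all 32851 start sites held 1 or more in the same window. Among the 8 members searched, the antioxidant core lay in the stretch of Atg13 alone, on the strand opposite to the gene (10.2% of all). None of the 8 held the forkhead site (3.17% of all). No start site was found for Rb1cc1 and Becn1, which were not searched. Such a match is a run of letters and not a measured binding site. The 4 stretches below are shown because Ulk1 had the largest day 1 change of the members and the other 3 hold the matches, which are in capitals. That of Ulk1 is chr5:110810082-110810331 (minus), that of Atg13 chr2:91710593-91710842 (minus), that of Atg5 chr10:44268089-44268338 (plus) and that of Atg7 chr6:114670846-114671095 (plus), whose start site lies 27999 bases inside the gene as GENCODE M21 draws it.
Ulk1: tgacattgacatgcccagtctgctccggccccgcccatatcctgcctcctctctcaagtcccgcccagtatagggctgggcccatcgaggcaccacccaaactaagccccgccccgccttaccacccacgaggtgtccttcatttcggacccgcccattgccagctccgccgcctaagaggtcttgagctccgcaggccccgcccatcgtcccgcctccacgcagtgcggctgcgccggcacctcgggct
Atg13: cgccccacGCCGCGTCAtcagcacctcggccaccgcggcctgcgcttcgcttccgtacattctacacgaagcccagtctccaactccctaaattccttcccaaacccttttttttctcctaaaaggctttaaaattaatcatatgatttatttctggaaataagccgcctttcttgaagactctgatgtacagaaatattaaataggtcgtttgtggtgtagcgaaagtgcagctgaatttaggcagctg
Atg5: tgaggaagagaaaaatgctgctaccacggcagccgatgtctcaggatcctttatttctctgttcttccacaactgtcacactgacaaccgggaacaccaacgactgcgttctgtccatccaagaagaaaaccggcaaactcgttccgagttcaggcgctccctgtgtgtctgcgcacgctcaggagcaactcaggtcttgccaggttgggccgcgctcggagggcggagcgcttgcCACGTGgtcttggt
Atg7: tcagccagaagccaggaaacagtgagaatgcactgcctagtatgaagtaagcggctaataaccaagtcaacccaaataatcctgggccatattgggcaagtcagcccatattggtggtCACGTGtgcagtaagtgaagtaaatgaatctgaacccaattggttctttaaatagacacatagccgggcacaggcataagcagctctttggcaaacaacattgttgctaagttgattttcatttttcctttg

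Depth and cell state differed between groups before any member is considered. The matrix held 102043 cells, 5667 to 7596 per mouse, and 32341960 to 70307384 unique molecular identifiers (UMIs, each standing for 1 captured transcript) per mouse. The median UMIs per cell was 8201.5 to 8995.5 in the 3 day 1 mice and 4694 to 6117 in the other 12. Cells with a UMI of the proliferation genes Mki67 or Top2a made up 19.6% to 27.4% of the cells at day 1 and 0.169% to 0.684% elsewhere, and cells with 3 or more markers of another cell type 0.871% to 1.03% and 0.229% to 0.527%. The 8 microglia markers summed to 13894 to 15475 CPM (counts scaled to a total of 1e+06 UMIs per mouse) at day 1 and to 19199 to 22152 elsewhere, against 13.3 to 17.6 and 3.45 to 11.8 for the 4 monocyte markers, so microglia markers were far above monocyte markers in every mouse. The median percent of mitochondrial UMIs was 3.96 to 4.50 at day 1 and 3.11 to 4.04 in the other mice. Of all barcodes, 1283 occurred in more than 1 library, in 2579 cells (2.53%). The part of depth, mitochondrial share and shared barcodes in the results was not tested.

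The first question was how the members stood 1 day after the dose. At day 1, 7 of the 10 members differed from ATV:RSV, 6 lower and 1 higher (limma-voom on UMIs summed per mouse, Benjamini-Hochberg adjusted p under 0.05 over all genes tested). In the same fit 69.2% of all genes tested were called, 34.7% higher and 34.6% lower, so the share of members called was at the background and the share called lower was above it. Levels are given as CPM on library sizes scaled by the trimmed mean of M values (TMM), under which the changes of all genes at day 1 had a median of -0.05 on the log2 scale. With the library size alone that median was -0.29, 34.7% of the calls over all genes were higher in place of 50.1%, and 8 members were called, all lower. The direction of a small change therefore depends on the scaling. Such cases are named for the members, and only in part for the other autophagy genes given further below. A lower share of a mouse's UMIs can come from fewer cells of a kind, from less RNA of a gene in each cell or from more UMIs of other genes. Sums per mouse alone cannot tell these apart.

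**Figure D1:**
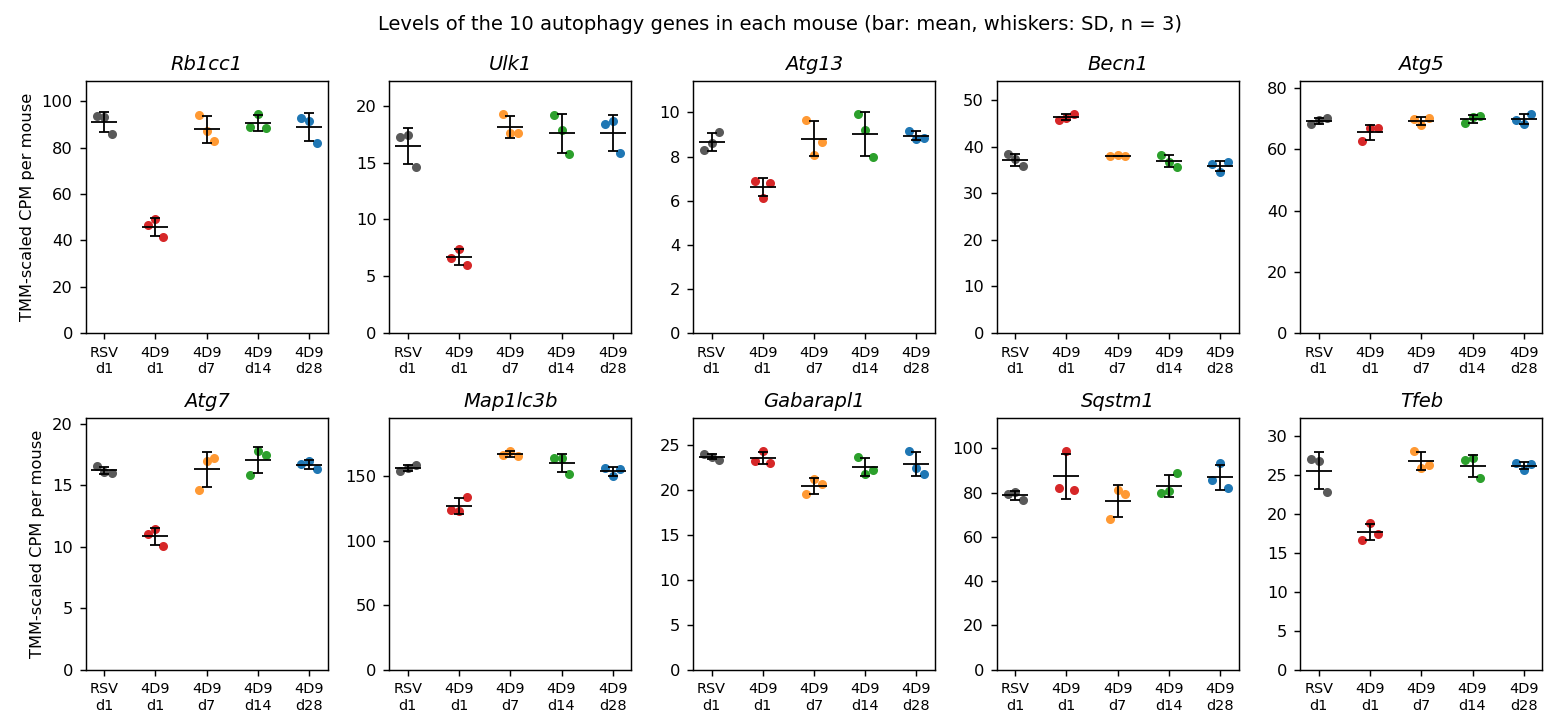
Level of each of the 10 autophagy genes in each of the 15 mice, as TMM-scaled CPM on a linear axis that starts at 0, with the mean and SD of 3 mice per group (RSV, ATV:RSV; 4D9, ATV:4D9; d, day). The day 1 points of Rb1cc1, Ulk1, Atg13, Atg7, Map1lc3b and Tfeb lie below those of all other mice, and the day 1 points of Becn1 lie above them.

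All 3 members of the initiation complex fell, and of these the kinase and the scaffold fell more than the adaptor. Ulk1, the kinase, measured 17.3, 17.4 and 14.6 CPM in the 3 ATV:RSV mice and 6.61, 7.42 and 6.01 CPM in the 3 day 1 mice. All day 1 mice were below all controls by a wide gap, and the log2 fold change was -1.29 (adjusted p = 3.12e-08 in limma-voom, SE 0.109), larger in size than that of 87.0% of all genes tested. Rb1cc1, the scaffold, measured 93.7, 93.0 and 85.9 CPM in ATV:RSV and 46.6, 49.3 and 41.5 CPM at day 1, again without overlap. Its log2 fold change was -0.99 (adjusted p = 4.05e-09 in limma-voom, SE 0.0700). Atg13, the adaptor between them, rested on 260 to 491 UMIs per mouse over all groups, and Ulk1 on 281 to 946, so both were measured on few transcripts. It measured 8.28, 8.61 and 9.09 CPM in ATV:RSV and 6.91, 6.14 and 6.80 CPM at day 1, a smaller fall of 0.39 on the log2 scale (adjusted p = 0.00131 in limma-voom, SE 0.0910). Each of the 3 genes was lower at day 1 within each of the 3 batches.

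Becn1, which encodes a core subunit of the lipid kinase complex, moved the other way. It measured 38.3, 37.2 and 35.9 CPM in ATV:RSV and 45.8, 46.1 and 47.0 CPM at day 1. All day 1 mice were above all controls, with a log2 fold change of 0.32 (adjusted p = 9.36e-06 in limma-voom, SE 0.0441), higher in 3 of 3 batches. With the library size alone the log2 fold change was 0.08 and was not called (limma-voom adjusted p = 0.101), so the rise of Becn1 was one relative to the TMM scaling.

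The conjugation genes differed from each other. Atg7, the activating enzyme, measured 16.6, 16.1 and 16.0 CPM in ATV:RSV and 11.1, 11.5 and 10.1 CPM at day 1, and fell by 0.57 on the log2 scale (adjusted p = 3.43e-06 in limma-voom, SE 0.0728). Atg5, part of the conjugate that attaches ATG8 proteins, measured 68.3, 69.6 and 70.1 CPM in ATV:RSV and 62.6, 66.9 and 67.1 CPM at day 1. The 3 day 1 mice were below the controls by little, and the gene was not called, with a log2 fold change of -0.08 (95% interval -0.17 to 0.01, adjusted p = 0.0876 in limma-voom). With the library size alone Atg5 was called lower, at -0.32 (limma-voom adjusted p = 3.57e-06).

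Of the ATG8 proteins, Map1lc3b fell and Gabarapl1 was not called. Map1lc3b, which encodes the LC3B protein used to mark autophagosomes, measured 154, 156 and 159 CPM in ATV:RSV and 123, 123 and 134 CPM at day 1. The groups did not overlap, and the log2 fold change was -0.30 (adjusted p = 1.82e-05 in limma-voom, SE 0.0449). Gabarapl1, of the GABARAP branch, measured 23.9, 23.7 and 23.3 CPM in ATV:RSV and 23.2, 24.2 and 23.0 CPM at day 1. These groups overlapped, with a log2 fold change of -0.01 (95% interval -0.13 to 0.11, adjusted p = 0.873 in limma-voom), and with the library size alone it was called lower at -0.25 (limma-voom adjusted p = 0.000963).

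Sqstm1 and Tfeb stood apart from each other as well. Sqstm1, the cargo receptor, measured 79.2, 80.5 and 76.6 CPM in ATV:RSV and 82.1, 99.0 and 81.0 CPM at day 1, so that 1 day 1 mouse was far above the other 2. The log2 fold change of 0.14 was not called (95% interval -0.03 to 0.32, adjusted p = 0.125 in limma-voom). It was 0.25 and called without the cells that held a UMI of Mki67 or Top2a (limma-voom adjusted p = 0.0127), and -0.10 and not called with the library size alone. Tfeb measured 27.0, 26.7 and 22.8 CPM in ATV:RSV and 16.7, 18.8 and 17.4 CPM at day 1. Its fall was the same in direction in all 3 batches and came to a log2 value of -0.53 (adjusted p = 6.34e-06 in limma-voom, SE 0.0712).

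The 7 calls of day 1 were the same genes in edgeR, in DESeq2 and without the cells that held markers of another cell type, and all 7 were called without the cells with Mki67 or Top2a. Each member's change at day 1 and later is shown with its interval in the plot of log2 fold changes.

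**Figure D2:**
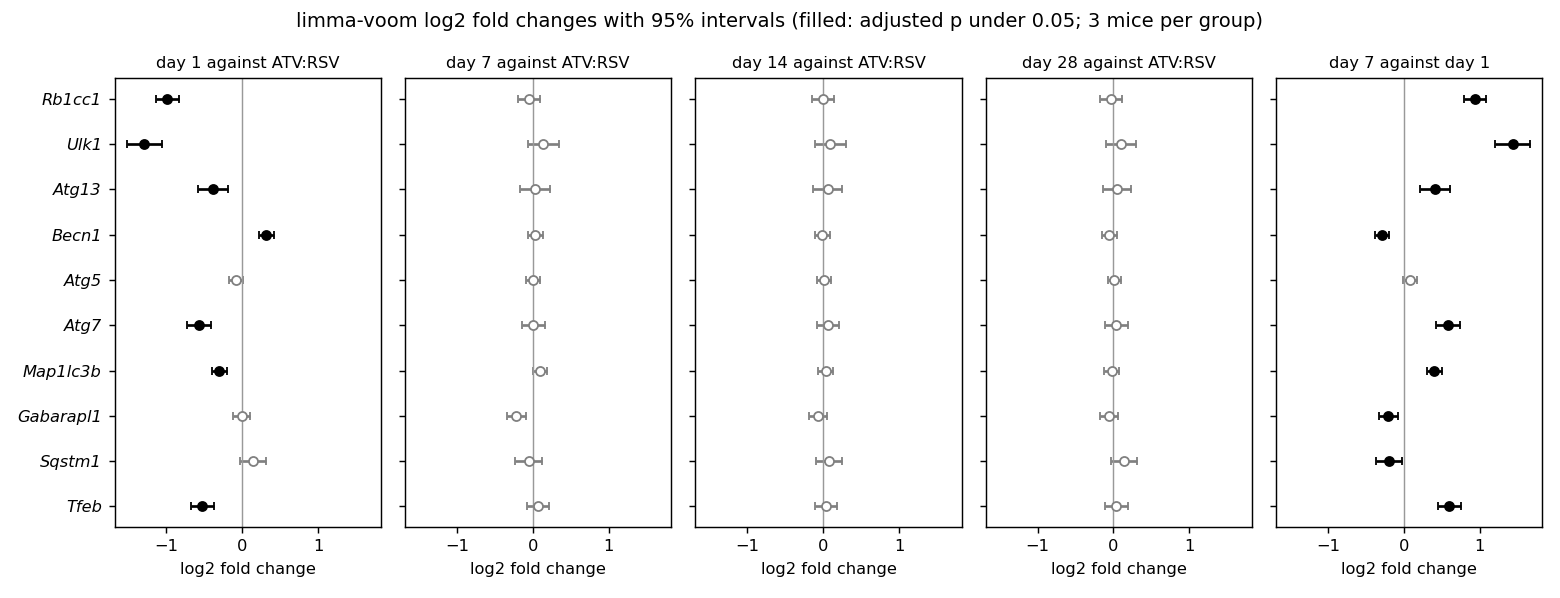
limma-voom log2 fold change of each member in 5 comparisons (x axis, log2 units) with its 95% interval, from 3 mice per group. Filled points have an adjusted p under 0.05: 7 members at day 1 against ATV:RSV, none at day 7, 14 or 28, and 9 in day 7 against day 1.

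Because cells held more UMIs at day 1, the members were also counted per cell, as a description without a test. On this scale 2 members were lower at day 1 than in every control, 4 were higher and 4 overlapped. Of all genes tested, 14.7% were lower and 49.4% higher without overlap on the same scale, so the counts of members on either side were near the background. Ulk1 gave 46.8 to 61.8 UMIs per 1000 cells at day 1 and 94.5 to 120 in ATV:RSV, and Rb1cc1 gave 323 to 417 and 555 to 653. These 2 initiation genes were thus lower both in TMM-scaled CPM and per cell. Becn1 gave 366 to 409 UMIs per 1000 cells at day 1 and 227 to 267 in ATV:RSV. Sqstm1 gave 632 to 825 and 491 to 552, Atg5 523 to 560 and 424 to 476, and Gabarapl1 179 to 208 and 144 to 167. Of the 6 members called lower in TMM-scaled CPM, Atg13, Atg7, Map1lc3b and Tfeb overlapped the controls per cell. Map1lc3b stood at 1026 to 1104 UMIs per 1000 cells against 954 to 1072, and Tfeb at 136 to 157 against 147 to 188. As a plain share of a mouse's UMIs, with the library size alone, Atg5 and Gabarapl1 were called lower too. The ratio of the mean UMIs per cell between the groups was 1.52, and capture of UMIs cannot be told apart here from RNA content.

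**Figure D3:**
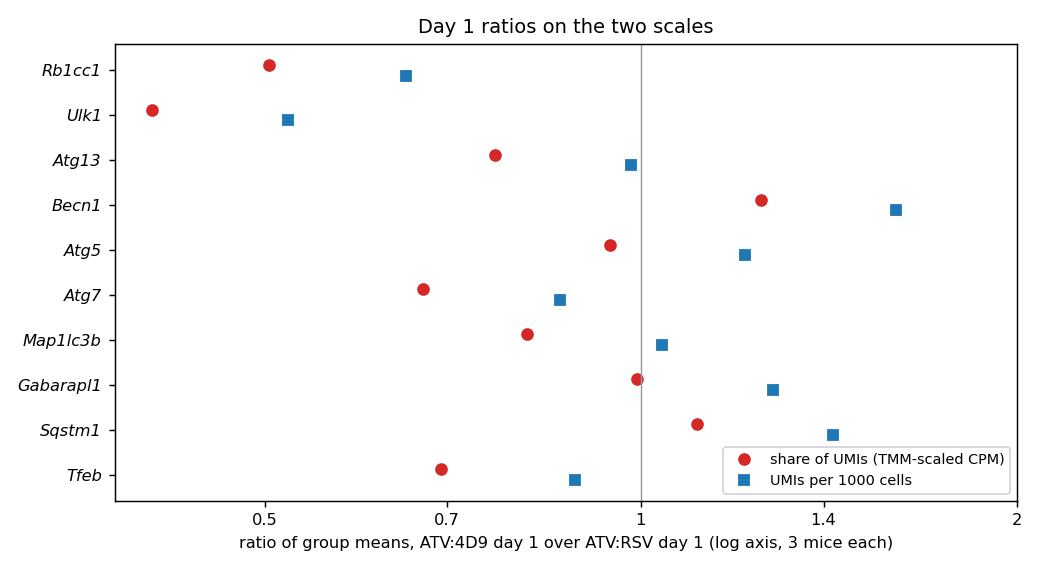
Ratio of group means, ATV:4D9 day 1 over ATV:RSV, for each member in TMM-scaled CPM (circles) and per cell (squares, UMIs per 1000 cells), on a log axis, 3 mice per group. The legend calls the circles a share of UMIs, but the TMM scaling moves them away from the plain share of a mouse's UMIs. Every square lies to the right of its circle, and the squares of Ulk1 and Rb1cc1, at 0.522 and 0.648, stay furthest to the left.

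To place the members in their pathway, 97 genes of autophagy in 10 lists, members included, were followed in the same fit, of which 96 passed the filter. Of these 96, 57 fell and 21 rose 1 day after the dose (81.3% called). Over all genes 69.2% were called, 34.6% lower and 34.7% higher. The median log2 fold change of the 96 was -0.32, against -0.05 over all genes. Under the library size alone 70 were called lower and 8 higher, which were not all the same genes. All 5 genes of the ULK1 initiation complex fell (median -0.99), including Ulk2, the paralog of Ulk1, at -1.19, and Atg101 at -0.35. Of the 8 genes of the class III PI3 kinase complex, 5 fell, and Becn1 was the 1 that rose. Among the 7 transcription factors, 6 fell (median -0.84) and Tfec alone rose, at 0.93, while the relatives Tfe3, Mitf and Tfeb changed by -0.84, -0.96 and -0.53. The lists of ATG9 and lipid transfer (7 of 10 lower, 2 higher), ATG8 conjugation (6 of 10 lower, 2 higher), ATG8 proteins (3 of 5 lower, 1 higher) and mTORC1 and AMPK (10 of 19 lower, 3 higher) also held more genes that fell than rose. Of the mTORC1 and AMPK list 68.4% were called, near the share over all genes. The 8 genes of autophagosome fusion split evenly, with 4 in each direction (5 lower and 0 higher with the library size alone).

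Of the 16 cargo receptors, Sqstm1 included, 11 fell and 3 rose (median -0.42). Over all genes 34.6% were called lower and 34.7% higher, with a median of -0.05. Calcoco1, a receptor for the endoplasmic reticulum, went from 15.7 ± 1.22 to 5.50 ± 0.994 CPM (SD, n = 3), a log2 fold change of -1.51 (adjusted p = 1.18e-07 in limma-voom, SE 0.142). Optn, a receptor that acts in mitophagy and on bacteria, rose from 2.84 ± 0.218 to 6.86 ± 0.670 CPM, by 1.26 on the log2 scale (adjusted p = 3.45e-08 in limma-voom, SE 0.107). The largest falls of the whole pathway beside it were in regulators of mTORC1. Ddit4, an inhibitor of mTORC1 that is induced by stress, measured 34.1 ± 14.8 CPM in ATV:RSV and 4.92 ± 0.272 CPM at day 1, with a log2 fold change of -2.70 (adjusted p = 0.00061 in limma-voom, SE 0.577). Deptor, another inhibitor, fell by 1.69 on the log2 scale, and the arginine sensor Castor1 fell by 1.49.

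In the list of KEAP1 and NRF2 targets, which p62 can influence by binding KEAP1, 4 of 8 tested genes rose at day 1 (median 0.29). Over all genes 69.2% were called and 34.7% were called higher, against 50% of this list called. None of the 8 was called lower by limma-voom, edgeR or DESeq2, with 0 lower at an unadjusted p under 0.05. With the library size alone 3 rose and 2 fell. They included Slc7a11, a cystine transporter, at 8.96 ± 2.77 CPM against 1.90 ± 0.0505 (log2 fold change 2.15, SE 0.285, adjusted p = 5.45e-06 in limma-voom). Srxn1, which repairs oxidised peroxiredoxins, rose by 1.50 on the log2 scale and the thioredoxin reductase Txnrd1 by 1.22, while Nfe2l2, which encodes NRF2 itself, rose by 0.34 (0.10 and not called with the library size alone). Of 10 genes of the dissociation response, which mark handling of the tissue, 5 were called lower at day 1 (median -0.34). The other 5 were not called, and over all genes 34.6% were called lower. The part of handling in the pathway's values was not tested.

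**Figure D4:**
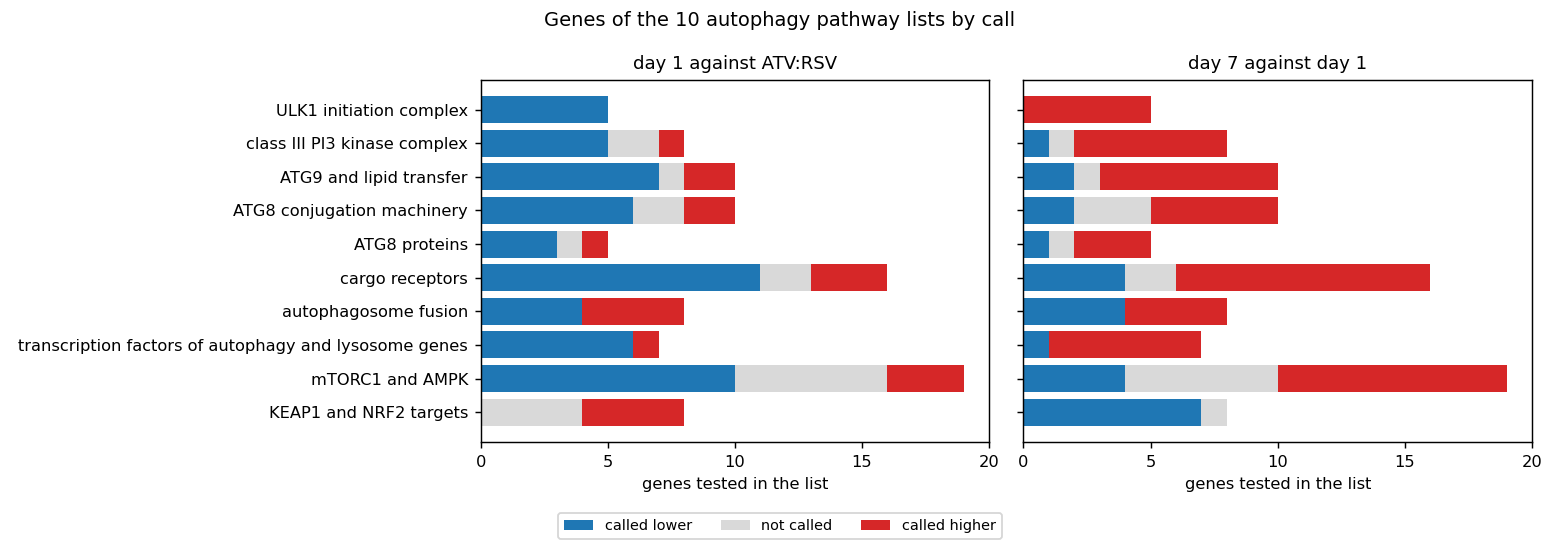
Number of tested genes called lower, not called and called higher (limma-voom adjusted p under 0.05) in each of the 10 autophagy lists, at day 1 against ATV:RSV (left) and in day 7 against day 1 (right). The ULK1 initiation complex has 5 of 5 genes lower on the left and 5 of 5 higher on the right, and the KEAP1 and NRF2 list has 4 of 8 higher on the left and 7 of 8 lower on the right.

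By day 7 no member was called against ATV:RSV in limma-voom, where 3.98% of all genes were (2.99% higher, 0.996% lower, thus 75% of calls higher, against 26.4% with the library size alone), and 2 of the 10 had an unadjusted p under 0.05. The member nearest to a call was Gabarapl1. It measured 19.5, 21.2 and 20.6 CPM at day 7 and 23.9, 23.7 and 23.3 CPM in ATV:RSV, without overlap and lower in 3 of 3 batches. Its log2 fold change was -0.21 (95% interval -0.34 to -0.09, adjusted p = 0.0535 in limma-voom). It was called by edgeR (adjusted p = 0.0382) and DESeq2 (0.0402), with the batch as a replicate block (-0.21, adjusted p = 0.0336 in limma-voom) and with the library size alone. Map1lc3b, the other ATG8 member, measured 166, 170 and 166 CPM at day 7, above all 3 controls, at a log2 fold change of 0.10 (95% interval 0.00 to 0.19, adjusted p = 0.301 in limma-voom). Ulk1 measured 19.3, 17.6 and 17.6 CPM, also above the controls, at 0.14 (95% interval -0.06 to 0.35, adjusted p = 0.512 in limma-voom). The other 7 members overlapped the controls, where 21.2% of all genes did not overlap, and over all 10 the 95% intervals reached from -0.34 to 0.35.

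By day 7 the pathway lists held 3 calls against ATV:RSV among 96 genes (3.13%), 2 higher and 1 lower, and 5 calls with the replicate block. Under the library size alone 1 pathway gene was higher and 11 were lower, so the balance of directions at day 7 depended on the scaling. Vmp1, a membrane protein needed for the growth of the autophagosome, was 110 ± 3.67 CPM in ATV:RSV and 156 ± 16.0 CPM at day 7, a log2 fold change of 0.50 (adjusted p = 0.000307 in limma-voom, SE 0.0691). Its level was 231 ± 10.4 CPM at day 1, 132 ± 9.48 at day 14 and 129 ± 4.65 at day 28, and it was not called on the last 2 days by limma-voom, whereas DESeq2 called it at day 14. Gabarap, the close relative of Gabarapl1, rose from 431 ± 15 to 495 ± 18.0 CPM, by 0.20 (adjusted p = 0.0203 in limma-voom, SE 0.0460), but by 0.11 with no call under the library size alone. Gclm, a subunit of the enzyme that makes the precursor of glutathione, fell by 0.25 (adjusted p = 0.0186 in limma-voom, SE 0.0575). Without ATV:RSV replicate 2, or without day 7 replicate 3, 1 pathway gene, Vmp1, was called. The call of Gclm was lost on leaving out any of 5 of the 6 mice compared, all but ATV:RSV replicate 1, and that of Gabarap on leaving out ATV:RSV replicate 1 or 2 or day 7 replicate 3. In day 7 replicate 3 the 4 neutrophil markers summed to 116 CPM, against 0.892 to 9.01 CPM in the other 14 mice, and 1 of its cells held 3 or more of them. Without that mouse Gabarapl1 stood at -0.22 and was not called (limma-voom adjusted p = 0.147). The part of these transcripts in the day 7 values was not tested.

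At days 14 and 28 no member and no pathway gene was called in limma-voom, where 0.400% and 0% of all genes were. No member had an unadjusted p under 0.05 on either day, and neither edgeR nor DESeq2 called one. Of the 96 pathway genes, 3 at day 14 and 4 at day 28 had an unadjusted p under 0.05, and DESeq2 called 1, Vmp1, at day 14 and edgeR none on either day. The intervals bound what could have been missed. At day 14 the 95% intervals of the 10 members lay between -0.19 and 0.30 on the log2 scale, and at day 28 between -0.18 and 0.31. Ulk1 measured 19.1, 17.8 and 15.7 CPM at day 14 and 18.4, 18.6 and 15.8 CPM at day 28, overlapping the ATV:RSV mice. Rb1cc1 measured 89.1, 94.6 and 88.5 CPM at day 14 and 92.8, 91.6 and 82.0 CPM at day 28, likewise overlapping the controls. The other members likewise stayed near the controls over the 9 mice of days 7, 14 and 28. Becn1 ranged from 34.5 to 38.1 CPM there against 35.9 to 38.3 CPM in ATV:RSV, and Atg5 from 67.9 to 71.6 against 68.3 to 70.1 CPM. Tfeb ranged from 24.5 to 28.1 CPM against 22.8 to 27.0, Atg7 from 14.6 to 17.8 against 16.0 to 16.6, and Atg13 from 7.97 to 9.93 against 8.28 to 9.09. Each of these 5 genes overlapped the controls. Of the ATG8 members after day 7, Map1lc3b ranged from 150 to 164 CPM against 154 to 159 and Gabarapl1 from 21.7 to 24.3 CPM against 23.3 to 23.9, both overlapping. Sqstm1 was the 1 member of 10 without overlap at day 28 (8.93% of all genes), at 85.6, 93.1 and 82.1 CPM, all above the controls, with a log2 fold change of 0.14 (95% interval -0.03 to 0.31, adjusted p = 1.00 in limma-voom).

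The change between day 1 and day 7 was tested directly, which uses no control mouse as an arm. In this contrast 9 of 10 members were called, 6 higher and 3 lower at day 7, where 66.9% of all genes were (33.0% higher, 33.9% lower). With the library size alone the median of all genes in this contrast was 0.17 in place of 0.02, 59.8% of its calls were higher in place of 49.3%, and 7 members were called higher and 1 lower. The 6 members that had fallen at day 1 were the 6 that were higher at day 7. Ulk1 was higher by 1.43 (adjusted p = 1.09e-08 in limma-voom, SE 0.109), Rb1cc1 by 0.94 (SE 0.0704, 9.04e-09 by limma-voom) and Tfeb by 0.60 (adjusted p = 2.01e-06 in limma-voom, SE 0.0719). Atg7 was higher by 0.58, Atg13 by 0.41 and Map1lc3b by 0.40, without overlap of the mice in any of the 3. Becn1 was lower at day 7 than at day 1 by its log2 fold change of -0.28 and Gabarapl1 by -0.20, again without overlap. Sqstm1 was called at -0.20 (limma-voom adjusted p = 0.0452), but its mice overlapped, and the call was lost without day 1 replicate 2 (-0.11, 0.233 by limma-voom) or without day 7 replicate 1 (-0.12, 0.215). Atg5 was not called (0.08, 95% interval -0.01 to 0.17, adjusted p = 0.0897 in limma-voom). The day 1 mice are shared by this contrast and the first, so the values are not independent of each other.

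Over the pathway lists, 81 of 96 genes (84.4%) were called in day 7 against day 1, 55 higher and 26 lower (64 and 17 with the library size alone), with a median of 0.34 against 0.02 over all genes. The shares over all genes, for this and the lists below, were 66.9% called, 33.0% higher and 33.9% lower. Of the 10 dissociation response genes 6 were higher and the other 4 were not called in the same contrast (median 0.54), and their part in the pathway's values was not tested here either. The highest were Castor1 at 1.61, Calcoco1 at 1.59, Deptor at 1.53 and Map1lc3a, which encodes the LC3A protein, at 1.44 (adjusted p = 9.14e-12 in limma-voom, SE 0.0589). Map1lc3a measured 42.1 ± 1.16 CPM at day 1 and 114 ± 2.18 CPM at day 7 (SD, n = 3). The lowest were Srxn1 at -1.87, Slc7a11 at -1.47, Txnrd1 at -1.29 and Phb2, an inner mitochondrial membrane protein that serves as a mitophagy receptor, at -1.09. Of the KEAP1 and NRF2 list 7 of 8 genes were lower at day 7 than at day 1. Ddit4 was not called in this contrast (1.23, adjusted p = 0.106 in limma-voom).

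The deposited cell table assigns each cell to cluster 0, 1 or 2. Cells were placed by expression of genes, so the levels by cluster are given as a description with no test, as CPM of the UMIs of a mouse's cells in that cluster, without TMM. Cluster 2 held 5607 to 6597 cells of each day 1 mouse and 74 to 245 cells of each other mouse, whereas clusters 0 and 1 held 211 to 383 and 180 to 555 cells of each day 1 mouse. In cluster 2, 7 of the 10 members were lower in all 3 day 1 mice than in the 3 ATV:RSV mice, against 3 in cluster 0 and 2 in cluster 1, and none was higher without overlap. Of all 14260 genes, 22.5% were lower and 20.9% higher without overlap in cluster 2, against 18.8% and 9.90% in cluster 0 and 15.4% and 12.2% in cluster 1.

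Map1lc3b was the 1 member that lay below the controls at day 1 in each cluster. It measured 147 ± 3.45, 131 ± 3.06 and 112 ± 3.91 CPM (SD, n = 3) in clusters 0, 1 and 2 at day 1, and 165 ± 4.08, 165 ± 0.542 and 181 ± 16.8 in ATV:RSV. Ulk1 measured 14.1 ± 2.84, 7.86 ± 1.19 and 5.70 ± 0.634 at day 1 and 17.7 ± 1.87, 16.9 ± 1.72 and 15.1 ± 5.82 in ATV:RSV, so that only its cluster 0 mice overlapped. The day 1 values of cluster 1 and the ATV:RSV values of cluster 2 rest on few transcripts, down to 4 and 6 UMIs of Ulk1 in a mouse, whereas each day 1 mouse had 266 or more in cluster 2. Rb1cc1 in cluster 2 measured 38.8 ± 3.55 at day 1 and 72.1 ± 11 in ATV:RSV. Tfeb in cluster 2 measured 15.5 ± 1.00 at day 1 and 34.1 ± 2.36 in ATV:RSV, whereas its mice overlapped in clusters 0 and 1. Becn1 in cluster 2 measured 41.5 ± 0.310 and 34.8 ± 7.04, which overlapped.

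Across all groups some members also differed between clusters 0 and 1. The clusters were drawn from gene expression, and the share of all genes with such an order was not computed. The counts of mice below are therefore a description of these members only. In ATV:RSV, Map1lc3b stood at 165 CPM in both clusters. It had at least 1713 UMIs per mouse in the 2693 to 2993 cells of cluster 1. In cluster 0 it had at least 4299 UMIs per mouse in 3477 to 4025 cells. Depth per cell thus differed between these clusters, and its part in the orders below was not tested. Sqstm1 was lower in cluster 1 than in cluster 0 in 15 of 15 mice, at 53.9 ± 1.80 against 95.4 ± 2.23 CPM in ATV:RSV (SD, n = 3). Ulk1 was likewise lower in cluster 1 in 15 of 15 mice and Tfeb in 14, whereas Rb1cc1 was higher there in 15 of 15 and Atg5 in 14. In cluster 2, Sqstm1 measured 78.3 ± 9.24 at day 1 and 115 ± 15.2 in ATV:RSV, without overlap.

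**Figure D5:**
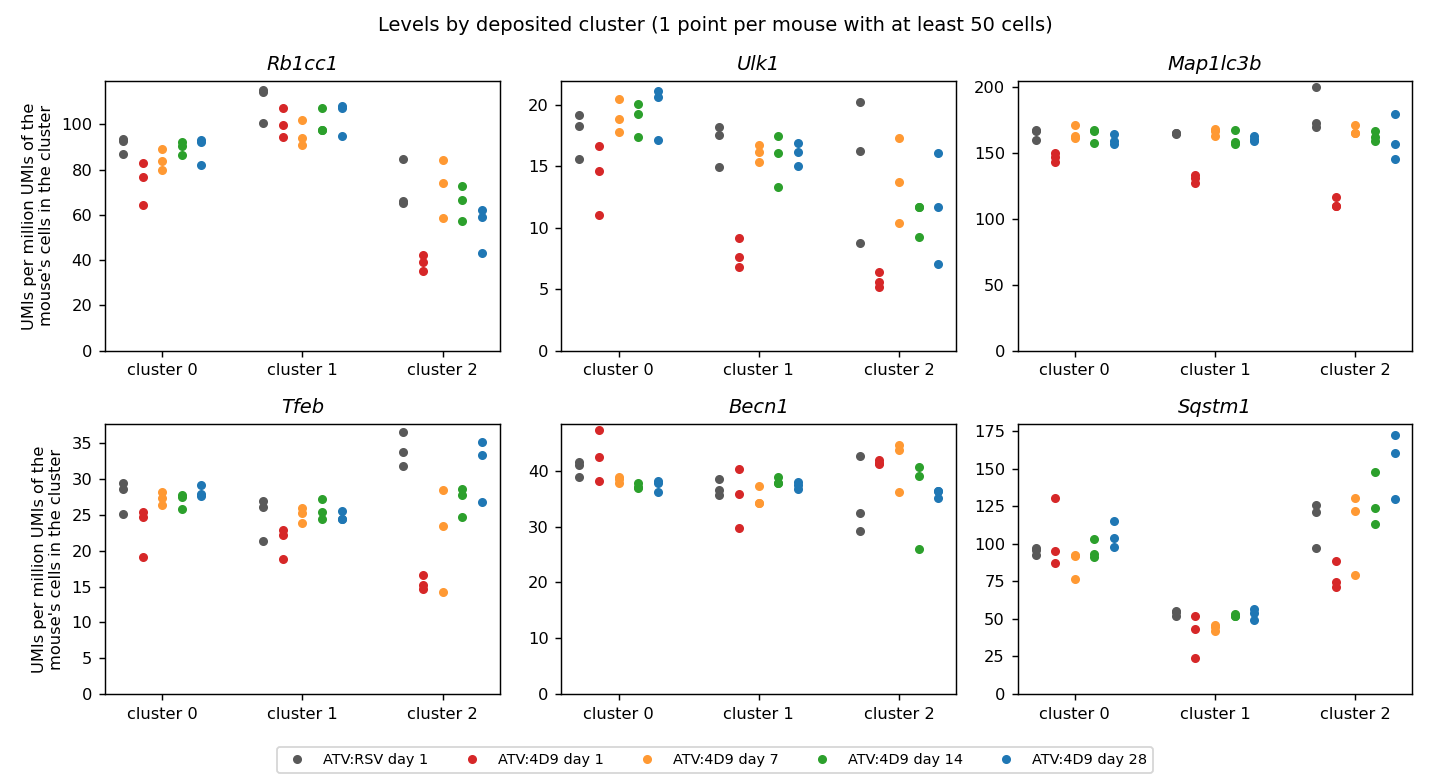
Level of 6 members in the deposited clusters 0, 1 and 2, as CPM of the UMIs in the mouse's cells of the cluster, with 1 point per mouse with at least 50 cells and the groups in colour. In cluster 2 the day 1 points of Rb1cc1, Map1lc3b and Ulk1 lie lowest, and in cluster 1 the points of Sqstm1 lie below those of cluster 0 in every mouse.

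Genes with the most similar pattern over the 15 mice were sought for the members with the lowest and the highest day 1 change, among genes with a mean of 10 CPM or more (7773 genes compared). Likeness was the root mean square difference of the log2 CPM profiles, each centred on its own mean. Nearest to Ulk1, whose own profile had a root mean square of 0.56, were Jarid2 (0.09), Zfp30 (0.10) and Tppp (0.10), with day 1 log2 fold changes of -1.41, -1.31 and -1.33. Nearest to Becn1, whose own profile had 0.14, were Atp6v1d (0.03), a subunit of the lysosomal proton pump, Tmem106c (0.04) and Prkar1a (0.04), a regulatory subunit of protein kinase A, with 0.33, 0.35 and 0.31. These profiles are set mainly by the step between day 1 and the other groups.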

How the data were processed

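Per the labels, the authors mapped the single-cell libraries to mm10 with Cell Ranger (4.0.0 in the submitters' processing notes) and used Seurat to filter and cluster cells. The study's methods name later versions of Cell Ranger, and versions differ in whether intronic reads are counted by default, so whether a UMI here can come from an intron is not settled. The deposited matrix contained raw whole UMI counts for every gene in every cell. The deposited cell table added the mouse, the cluster and the percent of mitochondrial UMIs. How cells were filtered and doublets treated is not given in the sources used here. Summed counts matched the cell table in 102043 of 102043 cells.

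UMIs were added up by mouse. Genes passing filterByExpr (minimum count 10, total 15) entered a limma-voom fit with TMM scaling (R 4.3.3, edgeR 4.0.16, limma 3.58.1), in which the 15 mice shared 1 estimate of spread and each group had its own mean. ATV:RSV was subtracted from each day, and day 1 from day 7. A call is a Benjamini-Hochberg adjusted p under 0.05 over all genes. Intervals are 95% intervals of the log2 fold change. The depth was 32341960 to 70307384 UMIs per mouse, and each member had 260 UMIs or more in each mouse. The fit was tested on simulated data in which few genes changed, equally in both directions. That test does not bear on the choice of scaling at day 1. The edgeR quasi-likelihood test and DESeq2 (1.42.0) were alternatives, as were other scalings, filters and sets of cells or mice.

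The members and the lists were chosen with earlier results of these data known, so their counts are descriptions. Beside the members, the text names the 4 highest and 4 lowest pathway genes of each comparison that were called, had 10 UMIs or more in each mouse compared and did not overlap. Other list members are given for context and were chosen after their values were seen. Batches pair the mice, since the labels put every group once into each of the 3. Within a batch, deviations from the group means had a mean correlation of 0.054 over genes (-0.22 to 0.26 in 30 pairs of mice), and between batches of -0.027 in 60 pairs. Libraries of the same group were not copies, with a chi-square of 10.6 to 29.2 per gene over 15 pairs. A further control animal named in the labels was not analysed here.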

Additional observations from a re-analysis of the deposited data

Results flagged for a closer look

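The levels of 9 members differed between day 1 and day 7 after ATV:4D9, by the direct test of day 7 against day 1 (limma-voom adjusted p under 0.05). Day 7 had no control of its own day, so antibody effect and time since the dose cannot be told apart in this contrast. Of the 9, Gabarapl1 and Sqstm1 were called on neither day against ATV:RSV in limma-voom. The log2 fold change of day 7 over day 1 was 1.43 for Ulk1, 0.94 for Rb1cc1, 0.60 for Tfeb, 0.58 for Atg7, 0.41 for Atg13 and 0.40 for Map1lc3b, all of which had fallen at day 1. It was -0.28 for Becn1, -0.20 for Gabarapl1 and -0.20 for Sqstm1. In this contrast 66.9% of all genes tested were called, so 9 of 10 is a share to be read beside that background. The call of Gabarapl1 was lost with the library size alone (-0.06, limma-voom adjusted p = 0.395), and so was that of Sqstm1 (-0.05, 0.632 by limma-voom), which lost its call in 9 of 24 alternatives, with limma-voom, edgeR or DESeq2 adjusted p-values of 0.00365 to 0.632 over the 24.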

How the results depend on the processing

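The count of members called at day 1 was 7 in limma-voom and 7 in each of 15 fits that left out 1 mouse. It was 8 with the library size alone, and 8 without the cells with Mki67 or Top2a, where Sqstm1 was added. In day 7 against day 1 it was 9, with 8 to 9 on leaving out a mouse. At day 7 against ATV:RSV it was 0 and became 1, Gabarapl1, with the library size alone, edgeR, DESeq2 or the batch as a replicate block, and 0 to 1 on leaving out 1 mouse (1 without day 28 replicate 1). The pathway genes called at day 7 were 3, against 12 (1 higher, 11 lower) with the library size alone, 5 with DESeq2, 5 with the replicate block and 1 to 4 on leaving out 1 mouse (1 without ATV:RSV replicate 2 or day 7 replicate 3). At day 14 they were 0, and 1 with DESeq2. The replicate block changed no other call of a member. Over all genes the count at day 7 was 568, against 1199 with the library size alone, 871 with DESeq2, 1014 with the replicate block, 331 when ATV:RSV replicate 2 and 334 when day 7 replicate 3 was left out. At day 14 it was 57, against 19 with the library size alone, 132 with DESeq2, 122 with the replicate block, 0 with only the 2 groups compared or on leaving out day 14 replicate 1, 30 on leaving out day 14 replicate 2 and 16 on leaving out ATV:RSV replicate 3. At day 28 it was 0, against 14 with DESeq2 and 2 with the replicate block. No called member changed sign in any of the 24 alternatives. The causes of these differences were not tested. Depth did not leave any member under 260 UMIs per mouse, but cluster levels rest on as few as 4 UMIs.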
